A study of Mus musculus with 4 samples.

Results

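The calcium pumps described here are the plasma membrane calcium ATPases Atp2b1 (PMCA1), Atp2b2 (PMCA2), Atp2b3 (PMCA3) and Atp2b4 (PMCA4), and Atp2a2 (SERCA2), the pump of the endoplasmic reticulum. They were chosen by gene symbol in a list of edited RNA positions from young mouse cortex, with earlier results of this list known. All 5 genes were present, with 293 of the 28412 listed sites and 5 of the 4206 gene symbols, or 1.03% of the sites. The sites come from scDART-seq, in which the cytidine deaminase APOBEC1 is joined to the YTH domain, which binds N6-methyladenosine (m6A) in RNA. The fusion turns cytosines beside m6A into uracil, read as C-to-T changes. Mice aged 6 to 8 weeks at the start received tamoxifen at 20 mg/kg every 24 h for 5 days, and cortex was taken 7 days after the final dose. Cortex was dissociated with papain, and the cells were barcoded with a Parse kit; libraries of sorted neuronal nuclei, also named for the series, were not analysed here. All 4 samples are sublibraries of the same cell pool, which mixed cells carrying APOBEC1-YTH with cells carrying APOBEC1-YTHmut, whose YTH domain is mutated. The sources used here give neither the promoter that drives the fusion nor the way the mutant cells entered the site calls. No site is tied to a sample, a genotype or a type of cell, so there are no replicates and no test between groups. Genes, regions and positions within the list are described instead.

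Calcium that enters a neuron has to be removed again, because it acts as a signal at low concentration. Plasma membrane calcium ATPases use ATP to push it out of the cell and are switched on by calmodulin, which binds near their C terminus. Alternative splicing at that end gives pumps with different tails, and the longer tail ends in a short peptide that binds PDZ domain proteins. SERCA pumps move calcium into the endoplasmic reticulum, and splicing gives Atp2a2 a longer form, SERCA2b, found in most cells, and a shorter form typical of muscle. m6A is a common internal mark of messenger RNA, known to gather in long last exons and around the stop codon, and its usual sequence is DRACH (D is A, G or T; R is A or G; H is A, C or T).

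In the DRACH frame the C that can be edited lies directly after the A that can be methylated. RAC stands for a purine (R), that A and the edited C, and not all listed sites have it. The windows below, 21 nt read on the transcript strand from GENCODE M21 (mm10), show the positions with the highest counts in each gene, with the edited C and the bases beside it that make up the DRACH frame in capitals. They are shown because the highest counts described below belong to them.
Atp2b2, chr6:113748261-113748281, minus strand: ataataaTAACGaattaatta
Atp2b2, chr6:113748279-113748299, minus strand: ttctccaAAACAtaaaaaata
Atp2b2, chr6:113748397-113748417, minus strand: agagaggGAACCagacctttc
Atp2b1, chr10:99023807-99023827, plus strand: gaaaacaAGACAaaaaaaaaa
Atp2b1, chr10:99022883-99022903, plus strand: aactttaTGACAcaccctgag
Atp2b3, chrX:73570858-73570878, plus strand: gagcatgAGACAagatgcgct
Atp2b4, chr1:133706498-133706518, minus strand: gggcaggTAACGgtagatcca
Atp2b4, chr1:133703020-133703040, minus strand: ttgtacaAAACAaaaagaaaa
Atp2a2, chr5:122456340-122456360, minus strand: aaaaataAAACAttttaaatg
Atp2a2, chr5:122456938-122456958, minus strand: tgtccatTGACGtgtacagag

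Atp2b2, Atp2b1 and Atp2b4 were among the genes with the most edited positions in the whole list. Atp2b2 had 96 sites, the 12th highest number of 4206 symbols. Atp2b1 had 75 sites and ranked 26th, and Atp2b4 had 71 and ranked 29th. Atp2a2 followed with 37 sites, rank 129, and Atp2b3 with 14, rank 475. The median symbol had 2 sites. In mm10 coordinates the genes lie at chr6:113743831-114042613 on the minus strand (Atp2b2), chr10:98914406-99026143 on the plus strand (Atp2b1) and chr1:133699457-133801041 on the minus strand (Atp2b4). Atp2a2 lies at chr5:122453513-122502225 on the minus strand and Atp2b3 at chrX:73503086-73571005 on the plus strand. Of all 21924 protein-coding symbols of the annotation, 17.6% had a site and 3.13% had 10 or more, and each of the 5 pumps had 10 or more. As the genes were picked with these numbers known, nothing is read from that count. Per kb of the longest coding transcript, Atp2b2 had 10.7 sites, Atp2b1 9.96, Atp2a2 6.02, Atp2b4 5.80 and Atp2b3 3.02. The median over 3854 genes with such a transcript and a listed site was 0.562 per kb and the 90th percentile 3.69. Atp2b3 lay below that percentile and the other 4 above it.

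How often a position is listed also depends on how much of the transcript was read, and neither expression nor read depth is in the list. A gene with few sites may thus come from fewer cells of a type, less RNA per cell or fewer edits, which cannot be told apart here. As a check of the labelled tissue, the cortical neuron genes Slc17a7 and Camk2a had 36 and 81 sites. All 293 pump sites matched the annotated strand of their gene and were a C in the transcript. No pump site lay in an exon of another annotated gene.

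The site count, a whole number per site whose meaning the deposited list does not state, differed widely within and between the pumps. It ran from 3 to 733 in Atp2b2 with a median of 5 and from 3 to 158 in Atp2a2 with a median of 7. Atp2b1 ranged from 3 to 86 with a median of 7, Atp2b4 from 3 to 85 with a median of 6, and Atp2b3 from 3 to 20 with a median of 4. Every gene thus started at the lowest count in the list, and the genes differed in how far they reached upward. Counts of 100 or more occurred at 10 pump sites, 8 in Atp2b2 and 2 in Atp2a2. The median over the 293 sites was 6, against 4 over the 28119 sites of all other genes, and among RAC sites alone 9 against 6.

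**Figure D1:**
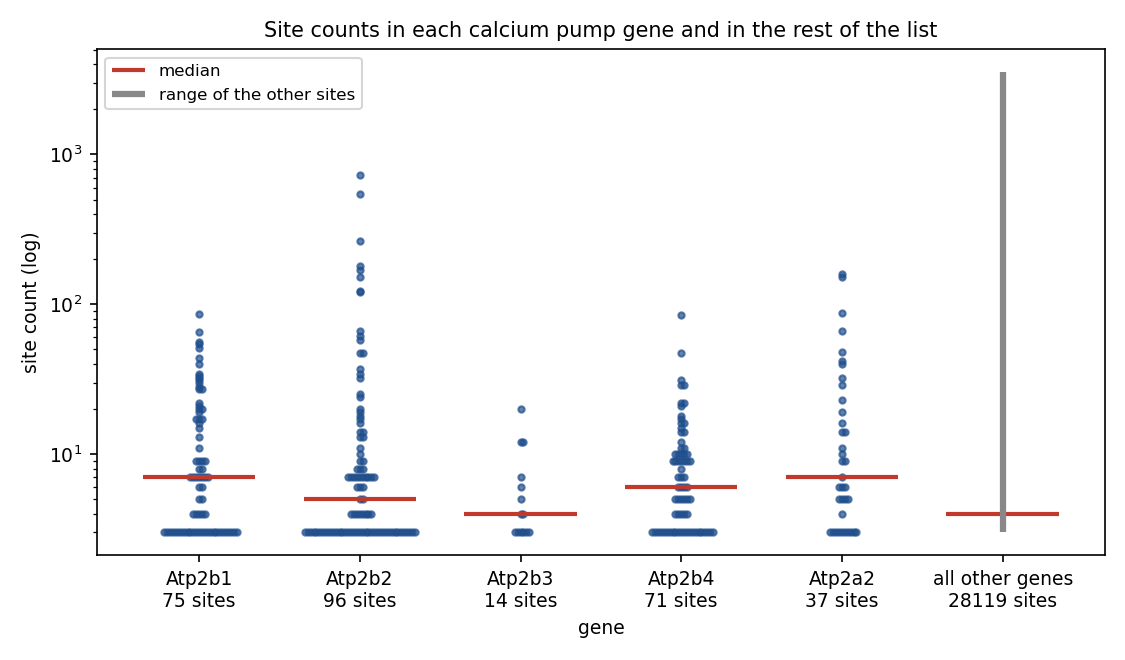
Each point is an edited site, placed by its site count on a logarithmic axis, for each calcium pump gene; red lines are medians and the grey bar spans the lowest and highest count of the sites in all other genes. Atp2b2 reached 733 and Atp2b3 no more than 20, while the medians of the 5 genes lay between 4 and 7.

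The strongest signal in Atp2b2, a fast pump of neurons and inner ear hair cells, lay early in its 3′ UTR. Position 113748271 of chromosome 6, 266 nt past the stop codon in TAACG, had a count of 733, the 25th highest of all sites. Its neighbour at 113748289, 248 nt after the stop codon in AAACA, had 545 and ranked 58th. These positions are the first pair of windows above, and together they held 40.3% of the summed count of the gene. The next were a count of 265 at 130 nt after the stop codon, 181 at 78 nt and 169 at 470 nt. All 8 sites with a count of 100 or more lay between 78 and 470 nt after the stop codon. The longest runs of sites with gaps of 10 nt or less held 6 sites. The one with the higher summed count spanned 29 nt, from 113748064 to 113748092, with counts from 3 to 169. The other stood at the start codon, from 113842301 to 113842331, with counts from 3 to 14. Further downstream a second group stood out at 2788 and 2823 nt after the stop codon, with counts of 47 and 66.

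In Atp2b1, the pump found in nearly all cells, the sites were spread over both sides of the stop codon. Of its 71 sites on the longest coding transcript, Atp2b1-201, 36 were in the coding sequence (CDS) and 34 in the 3′ UTR. The highest count, 86, lay 698 nt after the stop codon at position 99023817 of chromosome 10, in AGACA. A count of 51 stood 5 nt before it, at 99023812. On the coding side the highest counts were 65 at 99022893, 226 nt before the end of the stop codon, and 56 at 99022966, 153 nt before it. The longest run in the gene, 7 sites within 37 nt from 99022948 to 99022984, was in this coding stretch, with counts from 3 to 56. The remaining site among the highest 5, with a count of 54, was not in the messenger RNA as annotated. It lay at 98988332 in GAACG, in the single exon of Atp2b1-204, a transcript of 2334 nt annotated as a retained intron, where another site at 98988456 had a count of 8.

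Atp2b4, a pump expressed in many tissues, had its sites in separate groups along a long 3′ UTR. The highest count, 85, was 183 nt after the stop codon at 133706508 of chromosome 1 in TAACG, the same 5 bases as the leading site of Atp2b2. A count of 47 followed 3661 nt after the stop codon, then 31 at 1100 nt and 29 at 2002 nt, and another 29 stood 33 nt before the end of the stop codon. No site lay between those at 303 and 1027 nt after the stop codon, or between those at 2276 and 3486 nt, although these stretches hold 11 and 22 RAC cytosines. Such stretches were not limited to Atp2b4. In Atp2b2 no site lay between those at 1985 and 2558 nt after its stop codon, a stretch with 12 RAC cytosines. The annotated transcript Atp2b4-206 runs 3217 nt beyond the end of Atp2b4-207. That last part holds 64 RAC cytosines and 0 sites, whereas in the 3′ UTR up to the end of Atp2b4-207, 34 of 86 RAC cytosines were listed. In Atp2b2 the part beyond the end of Atp2b2-201 likewise had low values. It held 7 sites with counts of 3 and 4 and 6 of 52 RAC cytosines listed, against 44 of 74 in the 3′ UTR before it. No read depth is given, so absence of a site in these distal parts does not show whether the RNA extended there.

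The 5′ UTR of Atp2b4 carried 7 of its 71 sites, or 9.86% (exact 95% interval 4.06 to 19.3), with counts from 3 to 14. Atp2b1 had 1 site in its 5′ UTR, Atp2b2 had 2, and Atp2b3 and Atp2a2 had 0. Over all other genes the share was 1.98% (1.82 to 2.15). The 5′ UTR of Atp2b4 also offers more RAC cytosines, of which 6 of 29 were listed, or 20.7% (7.99 to 39.7), against 2 of 16 in Atp2b2, or 12.5% (1.55 to 38.3). These intervals overlap, and in Atp2b1, Atp2b3 and Atp2a2 none of 6, 4 and 4 was listed. All such intervals cover counting error only, since sites of a gene share reads and transcripts.

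Most Atp2a2 sites lay in the 3′ UTR of the transcript with the longer coding sequence, which corresponds in background knowledge to SERCA2b. Of its 37 sites, 22 lay in the 3′ UTR of Atp2a2-201, whose coding length is 3135 nt, with counts from 3 to 158 and a median of 17.5. Another 7 lay just beyond the annotated end of that transcript, in an exon of Atp2a2-203, a transcript annotated for nonsense-mediated decay, with counts from 5 to 14. The shorter coding form, Atp2a2-202 with 2997 nt, has its own last exon, shared with Atp2a2-203, and this held 3 sites with counts from 3 to 6. The remaining 5 sites lay in coding exons that all 3 transcripts share. The highest counts were 158 at 122456350 of chromosome 5, 801 nt after the stop codon, and 153 at 122456948, 203 nt after it. Counts of 87 at 220 nt, 66 at 737 nt and 48 at 148 nt came next. The site with 153 was the most 5′ of the longest run of the gene, 5 sites within 20 nt from 122456929 to 122456948.

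Atp2b3, a pump largely restricted to neurons, had the fewest sites and the lowest counts. Its highest count, 20, was at 73570868 of the X chromosome, 609 nt after the stop codon of Atp2b3-203, in AGACA. Counts of 12 at 193 and 659 nt, 7 at 178 nt and 6 at 302 nt followed. Of its 14 sites 13 lay in the last exon, and the other, with a count of 4, was in coding exon 10 at 73537022. The longest run was 4 sites within 16 nt from 73570437, with counts from 3 to 12.

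**Figure D2:**
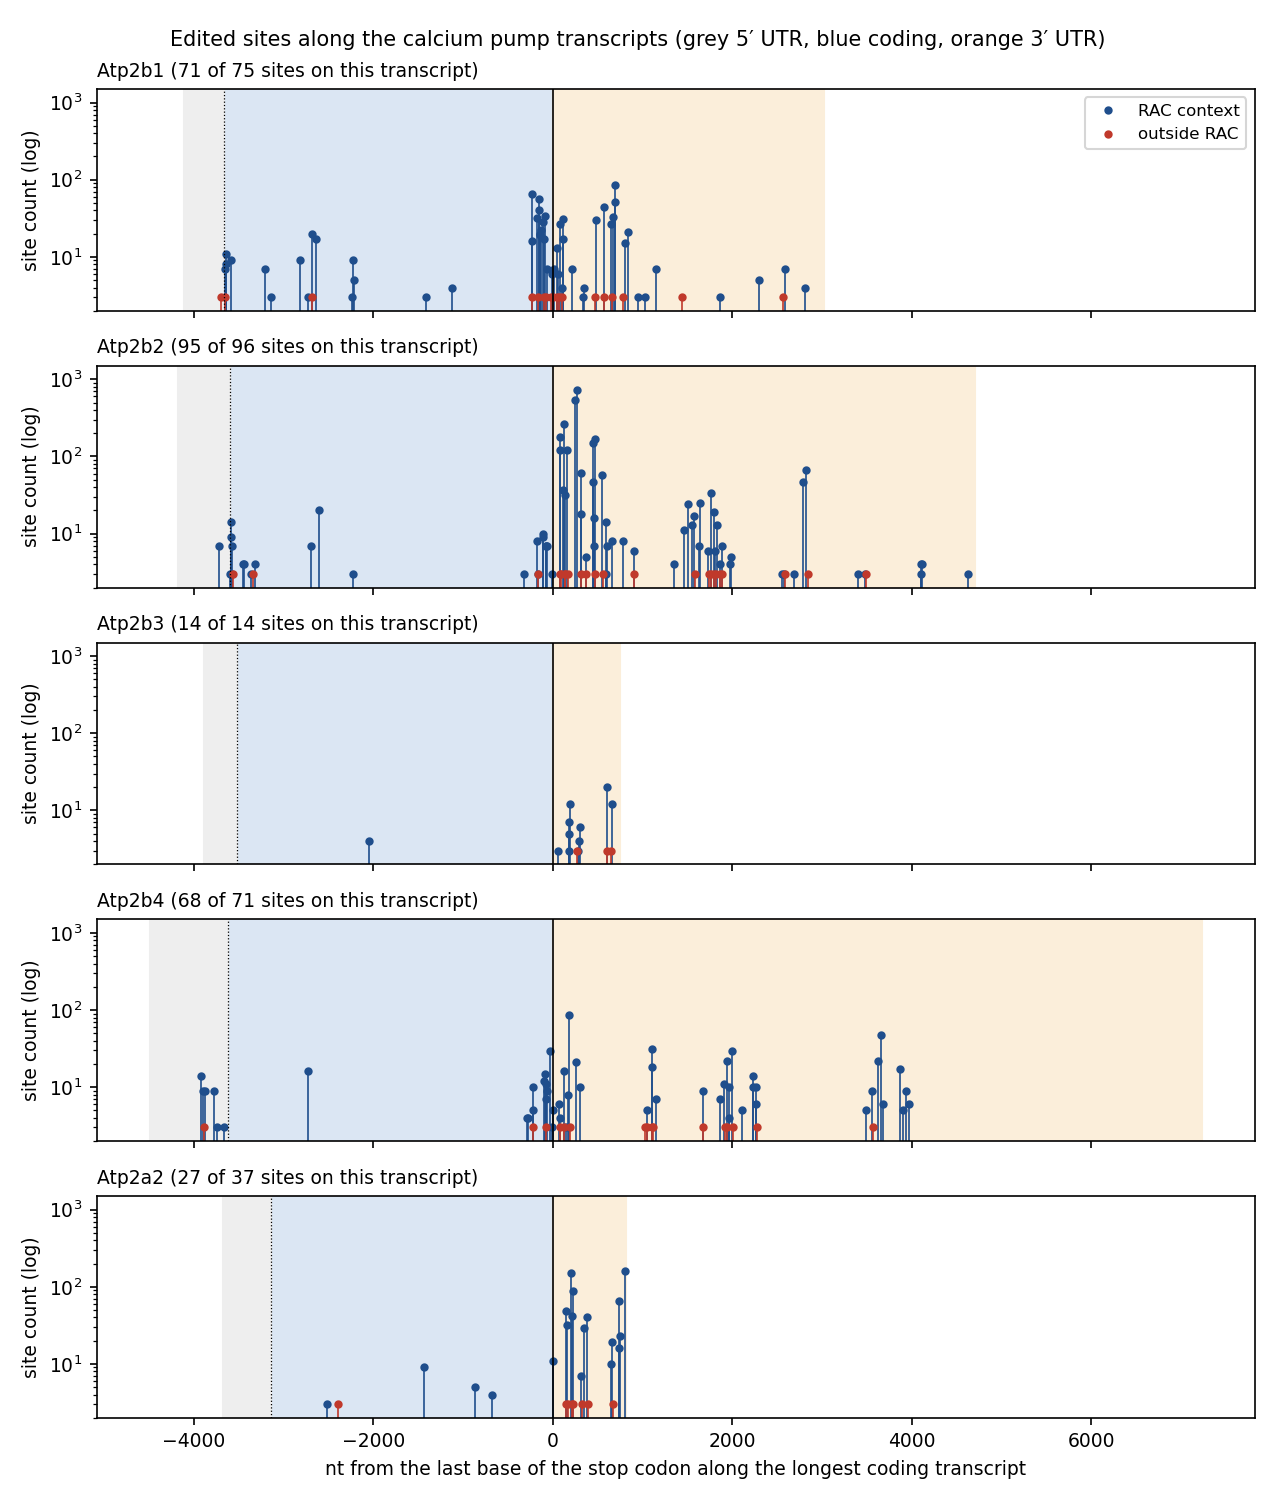
Sites of the 5 calcium pump genes are drawn at their distance from the last base of the stop codon on the longest coding transcript (x axis, nt), with the site count on a logarithmic y axis; blue marks RAC sites and red sites outside RAC. Grey, blue and orange shading marks 5′ UTR, CDS and 3′ UTR. The farthest sites lie 4631 nt after the stop codon in Atp2b2 and 3965 nt in Atp2b4, and those outside RAC all have a count of 3.

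By region, the 3′ UTR held 239 of the 293 pump sites, 81.6% (95% interval 76.6 to 85.8), against 61.7% (61.2 to 62.3) of the sites of all other genes. The CDS held 41 sites, or 13.99% (10.2 to 18.5), against 26.2%. The 3′ UTR share was 73.3% in Atp2b1, 82.3% in Atp2b2, 84.5% in Atp2b4, 86.5% in Atp2a2 and 92.9% in Atp2b3. This comparison depends on the isoform that sets the region. In the 4 plasma membrane pumps, some sites are coding in certain annotated transcripts and 3′ UTR in others. Such sites numbered 21 in Atp2b1, 13 in Atp2b4, 9 in Atp2b2 and 7 in Atp2b3, and Atp2a2 had 0. When they were counted as CDS, the 3′ UTR share fell to 64.5% (58.7 to 69.98) in the pumps, against 57.9% in other genes. On the longest coding transcripts it was 67.6% (61.8 to 73.1) in the pumps and 64.3% in other genes, a difference inside the interval.

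Distance from the stop codon was measured on the same longest transcripts, and so also depends on the transcript. Of the 275 pump sites on the longest coding transcripts, 109 lay within 400 nt of the stop codon, or 39.6% (33.8 to 45.7), against 30.2% (29.6 to 30.8) in other genes. The share was 64.3% in Atp2b3, 55.6% in Atp2a2, 45.1% in Atp2b1, 36.8% in Atp2b4 and 29.5% in Atp2b2. On the transcripts with the longest coding sequence it was 49.1% in the pumps and 31.1% in other genes. Only 216 pump sites lie on those transcripts, so the shares have different bases. The one of Atp2b2, Atp2b2-202, ends at 113748294, before the sites with counts of 545 and 733. The higher share thus does not show more sites near the stop codon. With sites within 10 nt merged, the share was 30.4% in the pumps and 28.7% in other genes. Atp2b1 had 19 sites in the 400 nt before the end of the stop codon and 13 in the 400 nt after it. Atp2b4 had 13 before and 12 after, Atp2b2 10 and 18, Atp2a2 0 and 15, and Atp2b3 0 and 9 on Atp2b3-203. On Atp2b3-202, the transcript aligned below, the stop codon lies further downstream, and 7 of these 9 Atp2b3 sites are coding and precede it.

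The number of sites depends on how many suitable cytosines a transcript offers, so the share of RAC cytosines that were listed was computed along each longest coding transcript. Over the 5 pumps, 207 of 971 RAC cytosines were listed, or 21.3% (18.8 to 24.0). In 484 other genes with at least as many sites as Atp2b3, a bound chosen after the values were seen, the share was 12.5%. All pumps but Atp2b3 lie above that bound, and they were chosen with their site numbers known. The groups are thus not matched in number of sites, and a higher share in the pumps is partly a matter of selection. Within the pumps the listed share changed sharply with position. From 800 to 400 nt before the stop codon 1 of 55 was listed, or 1.82% (0.0460 to 9.72), and in the 400 nt before it 33 of 68, or 48.5% (36.2 to 61.0). In the 400 nt after it 47 of 72 were listed, or 65.3% (53.1 to 76.1). The same 3 stretches gave 6.47%, 12.3% and 38.2% in the 484 other genes. From 1601 to 2000 nt after the stop codon the pumps had 18 of 30, of which Atp2b2 gave 11 of 12 and Atp2b4 6 of 8.

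**Figure D3:**
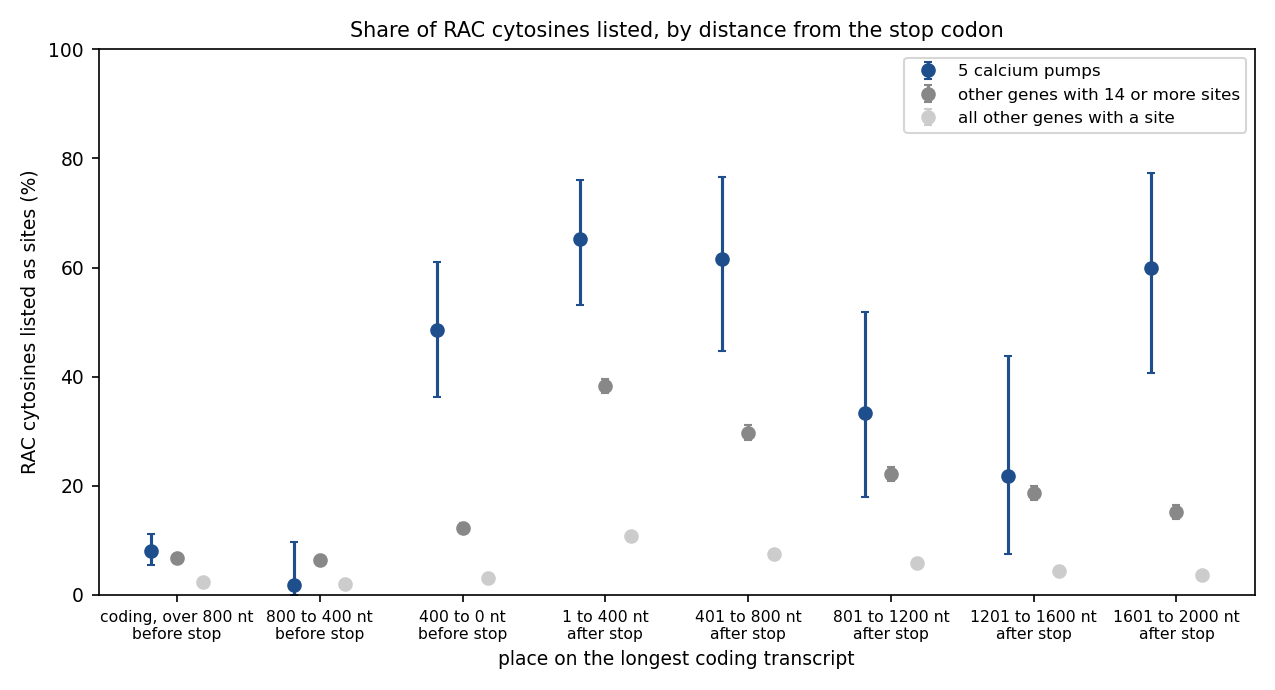
The y axis gives the percent of RAC cytosines that were listed as sites, and the x axis their place relative to the stop codon; points are shares with exact 95% binomial intervals for the 5 calcium pumps (blue), other genes with 14 or more sites (dark grey) and all other genes with a site (light grey). In the pumps 1 of 55 was listed between 800 and 400 nt before the stop codon and 33 of 68 in the 400 nt before it.

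The change before the stop codon coincided with the start of the last exon. The last exon of Atp2b1-201 begins with 312 coding nt, and all 13 RAC cytosines in them were listed. In Atp2b4-206 the last exon has 306 coding nt, with 11 of 13 listed, and in Atp2b2-203 it has 312, with 8 of 14 listed. In the coding parts of all other exons the numbers were 15 of 84 in Atp2b1, 12 of 102 in Atp2b2, 1 of 97 in Atp2b4 and 1 of 98 in Atp2b3. Atp2a2 differed. None of the 7 RAC cytosines in the 276 coding nt of its last exon was listed, while 15 of 19 in the 3′ UTR part of the same exon were. Over the 5 genes, 32 of 47 coding RAC cytosines in last exons were listed, or 68.1% (52.9 to 80.9), and 33 of 462 in other exons, or 7.14% (4.97 to 9.89). The 484 other genes, not matched to the pumps in number of sites, had 13.2% (12.2 to 14.3) and 6.90% (6.65 to 7.16). In Atp2b3-203 only 26 coding nt lie in the last exon, and they hold no RAC cytosine.

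**Figure D4:**
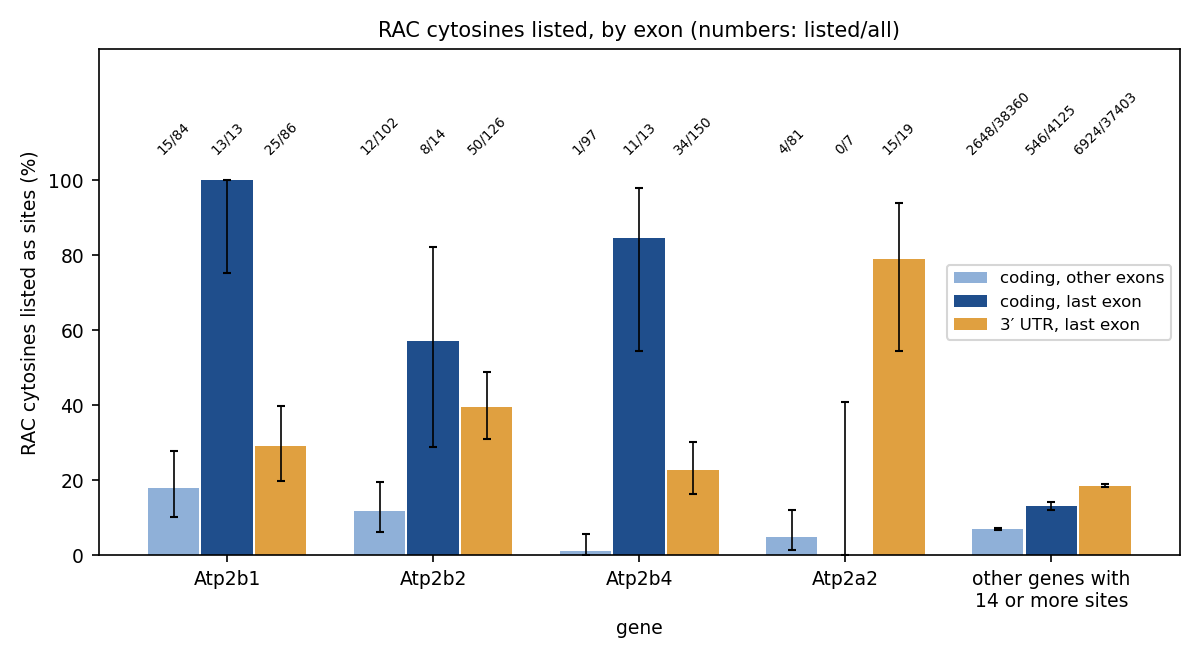
Bars give the percent of RAC cytosines listed as sites in coding parts of other exons, the coding part of the last exon and the 3′ UTR part of the last exon, with exact 95% binomial intervals and the counts above; Atp2b3 is not drawn because its last exon has no coding RAC cytosine in the transcript used. All 13 in the last coding stretch of Atp2b1 and 11 of 13 in Atp2b4 were listed, against 0 of 7 in Atp2a2.

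Some coding sites of the plasma membrane pumps fell on matching bases of their genes. The coding sequences of the 4 genes were aligned, each from the transcript with the longest coding sequence, and were 69.6% to 77.8% identical in pairs. Sites occupied 65 alignment columns, of which 9 held sites of 2 genes, 2 of 3 genes and 1 of all 4. The column with all 4 lay 10 nt before the last base of the stop codon, inside the C-terminal codons known to encode the PDZ-binding peptide. Its windows end with the stop codon and are shown so that the shared frame can be seen.
Atp2b1, chr10:99023099-99023119, plus strand: agtttggAAACAtcactctga
Atp2b2, chr6:113748537-113748557, minus strand: agcctggAGACGtcgctttag
Atp2b3, chrX:73570534-73570554, plus strand: agcatggAGACAtccctctaa
Atp2b4, chr1:133706691-133706711, minus strand: agcctggAGACAccggtctga
Counts there were low, at 6 in Atp2b1 and 3 in each of the other 3 genes. A cytosine in RAC was present in all 4 genes at 28 alignment columns, and 21 of these were listed in none of them. A column 90 nt before the end of the stop codon of Atp2b1 was listed in Atp2b1 with a count of 34 and in Atp2b3 and Atp2b4 with 12 each, but not in Atp2b2.

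Atp2b1 and Atp2b2 also shared edited bases beside the start codon. Position 9 of the coding sequence, in codon 3, had a count of 7 in Atp2b1 and 14 in Atp2b2. Position 18, in codon 6, had 11 in Atp2b1 and 3 in Atp2b2. The windows around the first of these bases include the ATG start codon.
Atp2b1, chr10:98968915-98968935, plus strand: tgatgggCGACAtggccaaca
Atp2b2, chr6:113842312-113842332, minus strand: acatgggTGACAtgaccaaca
Within 100 nt of the start codon Atp2b1 and Atp2b2 had 6 sites each, with counts from 3 to 11 and from 3 to 14. Atp2b4 had 1 there, and Atp2b3 and Atp2a2 had 0. Over the 5 genes this made 13 of 275 sites, or 4.73% (2.54 to 7.95), against 1.91% (1.74 to 2.09) in other genes.

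Between Atp2b1 and Atp2b2, 46 coding cytosines stood in RAC in both genes, 8 of them in the last 400 nt of Atp2b1 and 38 before. In the last 400 nt 3 were listed in both genes, 3 in Atp2b1 alone, 1 in Atp2b2 alone and 1 in neither. Before that, 3 were listed in both, 3 in Atp2b1 alone, 1 in Atp2b2 alone and 31 in neither. For Atp2b1 and Atp2b4, the numbers before the last 400 nt were 0 in both, 9 in Atp2b1 alone and 31 in neither. In the last 400 nt, 3 of 6 were listed in both and 3 in neither.

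The RAC and DRACH shares of the pump sites were close to those of other genes, while the shares of AAAC and TGAC lay further apart. Of the 293 sites 222 lay in RAC, or 75.8% (70.4 to 80.6), against 77.8% in other genes, with a range over the genes from 75.0% in Atp2b2 to 78.6% in Atp2b3. All 71 sites outside RAC had a count of 3, the lowest in the list, as did all 6226 such sites in other genes. DRACH held 164 sites, 55.97% (50.1 to 61.7) against 55.2%. Among RAC sites the DRACH share was 82.1% in Atp2a2, 79.2% in Atp2b2, 75.9% in Atp2b4, 72.7% in Atp2b3 and 61.4% in Atp2b1, and the intervals of these shares overlapped. AAACA was the commonest context with 22 sites, followed by AGACA and TGACA with 20 each. AAAC made up 20.3% (15.2 to 26.2) of RAC sites in the pumps and 27.2% in other genes. TGAC made up 40 of the 222 in the pumps (95% interval 13.2 to 23.7%), against 13.1% in other genes. GGAC had 13 sites, or 5.86% (3.15 to 9.81) against 6.94%, and its highest count in the pumps was 32.

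Other genes of calcium transport were read from lists chosen with earlier results of these data known. Of 11 annotated partners and regulators of the pumps 7 had a site, each with 10 or more, where 17.6% of all protein-coding symbols had a site and 3.13% had 10 or more. Calm2 and Calm3, which encode the calmodulin that activates plasma membrane pumps, had 55 and 40 sites, and a site in Calm3 had a count of 431. Bsg and Nptn, whose proteins are subunits of plasma membrane pumps, had 30 sites each. Pln and Sln, small inhibitors of SERCA known from muscle, had 0.

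Of 22 other genes of calcium extrusion and stores 9 had a site, or 40.9%, and 4 had 10 or more, beside the same 17.6% and 3.13% of all protein-coding symbols. They were led by the exchangers Slc24a2 with 76 and Slc8a1 with 43 and the release channel Ryr2 with 16, while Slc24a3 had 13 and the IP3 receptor Itpr1 had 6. Among 32 other P-type ATPases 12 had a site, or 37.5%, and 5 had 10 or more, again beside 17.6% and 3.13%. The lipid flippase Atp8a1 had 36 sites and the Golgi calcium pump Atp2c1 had 13. The remaining SERCA genes, Atp2a1 of fast muscle and Atp2a3, had 0 sites.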

How the data were processed

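The values come from a list of edited sites in pooled mouse cortex. STAR 2.7.5 and the build mm10 are named in the submitters' processing notes, and the series text names Bullseye for site calling. The authors deposited each site with its position, strand, symbol and a count, without header, normalization or sample. The sources used here do not give what it counts, the read depth or the filters. Coordinates are 1-based. Sites were placed on GENCODE M21 transcripts (mm10 coordinates), with 3′ UTR before CDS before 5′ UTR before noncoding exon where transcripts differed. Distances used the longest coding transcript. RAC cytosines were read from the same transcript sequences. Coding sequences were aligned with MAFFT 7.526. Intervals are exact (Clopper-Pearson) 95% binomial intervals from scipy 1.17.1 and cover counting error only. No p-value was computed, and no genes of like pattern were sought, since the list has neither samples nor cell types. Placement was tested on simulated data, where 200 of 200 positions were recovered. The members and gene lists were chosen with earlier results of these data known. Named sites are the 5 with the highest count in each gene, the longest run, and shared aligned bases, and for each gene list up to 5 genes with the most sites, some of which are not reported here; start-codon sites, paired-gene counts, distal UTR parts and genes with 0 sites were chosen after their values were seen. Alternatives used sites with a count of 4 or more, RAC sites, merged neighbours, the genes without Atp2b2, and other region and stop codon rules.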

Additional observations from a re-analysis of the deposited data

How the results depend on the processing

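The number of pump sites was 190 at a count of 4 or more and 187 after merging sites within 10 nt. The 3′ UTR share was 64.5% with CDS before 3′ UTR, where sites that are coding in some transcripts and 3′ UTR in others counted as CDS. It was 67.6% on the longest coding transcript, and what moved that value was not tested. The RAC share was 100% at a count of 4 or more and 88.8% after merging, and the DRACH share 73.7%, 69.5% and, 73.9% among RAC sites. Sites with a count of 3 include every pump site outside RAC. The median count was 10 at a count of 4 or more and 9 for RAC sites. The share near the stop codon was 30.4% after merging and 26.9% within 200 nt. It was 49.1% of the 216 pump sites on transcripts with the longest coding sequence, against 31.1% in other genes. That alternative was chosen after seeing the data, and it leaves out sites beyond the ends of those transcripts. Another 14 alternative values moved by less than their interval, or 1.5 times for a number of sites, including all 6 without Atp2b2. Atp2b2 ranked 11th to 13th, Atp2b1 20th to 22nd and Atp2b4 22nd to 24th by sites with a count of 4 or more, RAC sites or merged sites. No paired analysis was possible because no replicate number is tied to any site. Read depth is unknown and limits every statement on positions without a site.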

Other observations

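Most sites outside RAC stood close to a RAC site. Of the 71 such sites in the pumps, 51 had a RAC site of the same gene within 10 nt, or 71.8% (exact 95% interval 59.9 to 81.9), against 67.7% in other genes. In 42 of the 51 the nearest RAC site lay upstream and in 9 downstream, while in other genes the numbers were 2504 and 1708. The directions are not equally open to sites, because the bases of RAC before its C are A or G. A site 1 or 2 nt upstream of a RAC site is thus largely precluded by the motif. Sites 3 to 10 nt upstream are not barred in this way. Whether the motif accounts for the 42 against 9 in the pumps was not tested. At 1 and 2 nt downstream there were 5 and 14 sites in the pumps, and 453 and 672 in other genes. A distance of 2 nt downstream of the RAC site was the commonest in the pumps, with 14 sites. An example is 113748457 of chromosome 6 in Atp2b2, with a count of 3, beside 113748459 with a count of 181. What makes these positions appear was not tested. Among all 222 RAC sites of the pumps, 37.8% (31.4 to 44.6) had another RAC site of the same gene within 10 nt, against 28.6% in other genes. Near neighbours are likelier where sites are dense, and the groups were not matched for density. The pumps had 3.02 to 10.7 sites per kb, against a median of 0.562 over genes with a listed site. A and T made up a median of 60% of the 20 bases around RAC sites in the pumps and 60% in other genes.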
